A study of Mus musculus with 30 samples.

Results

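The Ifitm family on mouse chromosome 7 was followed through 30 mammary tumours as 5 genes, Ifitm1, Ifitm2, Ifitm3, Ifitm5 and Ifitm6, of 20849 genes in the expression table. They were taken by name, with the transcript of highest mean level for each gene. Ifitm1 had 2 transcripts and the others 1 each. The family was chosen by its measured levels, since Ifitm2 lay at 2 levels in these tumours, and the levels of Ifitm2 are given as a description, without a test.

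The tumours were induced by PyMT, the polyoma virus middle T antigen, an oncogene that drives mammary carcinoma in mice. The animals came from a backcross, in which offspring of MOLF, a strain derived from wild mice, and a PyMT parent were mated to FVB. Every tumour came from a differently numbered animal of this one cross, and no treatment, genotype, age or tumour stage is given in the labels, nor the promoter that drives PyMT. The libraries fell into 14 deep ones, with an estimated 117 to 197 megareads, and 16 shallow ones, with 42.7 to 62.0 megareads. The luminal epithelial markers (Krt8, Krt18, Krt19, Epcam, Cdh1, Elf3, Cldn3, Cldn7) were all measured and summed to between 1404 and 3106 RPKM (read density corrected for transcript length and library depth) in every tumour.

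Ifitm genes encode small membrane proteins that hinder enveloped viruses from fusing with cell membranes. IFITM1 sits mainly at the cell surface, IFITM2 and IFITM3 mainly in endosomes, and interferons induce all 3 genes by way of elements that bind STAT and IRF factors. IFITM5 is known from bone-forming osteoblasts, and Ifitm6 is a less studied member of the mouse family. The genes lie together on the chromosome in the RefSeq order Ifitm5, Ifitm2, Ifitm1, Ifitm3, Ifitm6.

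The start regions of the 3 interferon-inducible members are shown because these genes differ in their matches to the interferon element. The sequences are from RefSeq (build GRCm38.p6, the C57BL/6J reference and not MOLF or FVB), 250 bases before to 30 bases after the start, 5′ to 3′ on the gene's strand. Capitals mark matches to GAAANNGAAA, the core of the interferon-stimulated response element (ISRE), which was searched on both strands as GAAANNGAAA and TTTCNNTTTC.
Ifitm2 (chr7:140955932-140956211, minus strand): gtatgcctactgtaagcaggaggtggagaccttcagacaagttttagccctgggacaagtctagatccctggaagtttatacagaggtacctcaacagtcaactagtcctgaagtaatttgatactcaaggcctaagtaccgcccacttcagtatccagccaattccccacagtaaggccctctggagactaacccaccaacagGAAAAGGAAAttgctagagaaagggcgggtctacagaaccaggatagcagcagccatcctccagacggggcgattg
Ifitm3 (chr7:141010715-141010994, minus strand): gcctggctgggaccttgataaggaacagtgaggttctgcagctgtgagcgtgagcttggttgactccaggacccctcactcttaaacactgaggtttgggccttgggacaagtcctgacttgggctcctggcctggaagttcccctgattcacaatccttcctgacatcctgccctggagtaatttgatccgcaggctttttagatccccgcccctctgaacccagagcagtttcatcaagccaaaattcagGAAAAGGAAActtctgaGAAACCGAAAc
Ifitm1 (chr7:140967826-140968105, plus strand): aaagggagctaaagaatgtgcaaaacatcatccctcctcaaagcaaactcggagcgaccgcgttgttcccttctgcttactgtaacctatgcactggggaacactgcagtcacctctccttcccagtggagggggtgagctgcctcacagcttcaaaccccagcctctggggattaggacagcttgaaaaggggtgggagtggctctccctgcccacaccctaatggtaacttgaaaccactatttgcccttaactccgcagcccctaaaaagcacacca
Ifitm2 held 1 match, which began 46 bases before the start. Ifitm3 held 2 matches, which began at bases 3 and 20 after the start. The start region of Ifitm1 held no match, and neither did those of Ifitm5 and Ifitm6. The same letters occurred in 1131 of 32851 mouse start regions of 300 bases (3.44%). The interferon-gamma element, searched as TTCNNNGAA (the same on both strands), occurred once each at Ifitm3 and Ifitm6, and in 8.30% of all start regions. At Ifitm3 it overlapped the second ISRE match. A match describes letters in the reference and is no evidence of binding in these animals.

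Ifitm2 was the most abundant member and Ifitm5 or Ifitm6 the least. Levels per length ran in the order Ifitm2, Ifitm3, Ifitm1 and then Ifitm5 and Ifitm6 in 30 of 30 tumours, and Ifitm6 exceeded Ifitm5 in 25 of 30. Ifitm2 averaged 537 ± 413 RPKM, Ifitm3 186 ± 124, Ifitm1 15.8 ± 12.4, Ifitm6 4.27 ± 2.84 and Ifitm5 2.33 ± 1.24 (SD, n = 30). The ranges of neighbours in this order overlapped over the tumours, and the means of Ifitm6 and Ifitm5 differed by less than the SD of Ifitm6. The log2 levels of Ifitm2 and Ifitm1 had a larger SD than 99.1% and 98.6% of tested genes, and those of Ifitm3, Ifitm6 and Ifitm5 a larger one than 97.3%, 95.8% and 86.0%. Animal 4438 had the lowest value of all 5 members.

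Ordered by level, Ifitm2 left its largest gap between 682 RPKM in animal 4164 and 278 RPKM in animal 4042, with 15 tumours above and 15 below. The lowest, median and highest values were 682, 812 and 1497 RPKM above the gap, against 88.5, 160 and 278 RPKM below it, and the median above was 5.07 times the median below. The 2 levels were present in both depth classes. In deep libraries Ifitm2 ran from 687 to 1280 RPKM above the gap (n = 9) and from 135 to 278 RPKM below it (n = 5), and in shallow libraries from 682 to 1497 RPKM above (n = 6) and from 88.5 to 206 RPKM below (n = 10). The tumours above the gap had a median depth of 144 megareads and those below 60.7 megareads. Their median insert sizes were 242.5 above and 256.3 below, and the part of depth and insert size in the split was not tested beyond the fits given below.

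**Figure D1:**
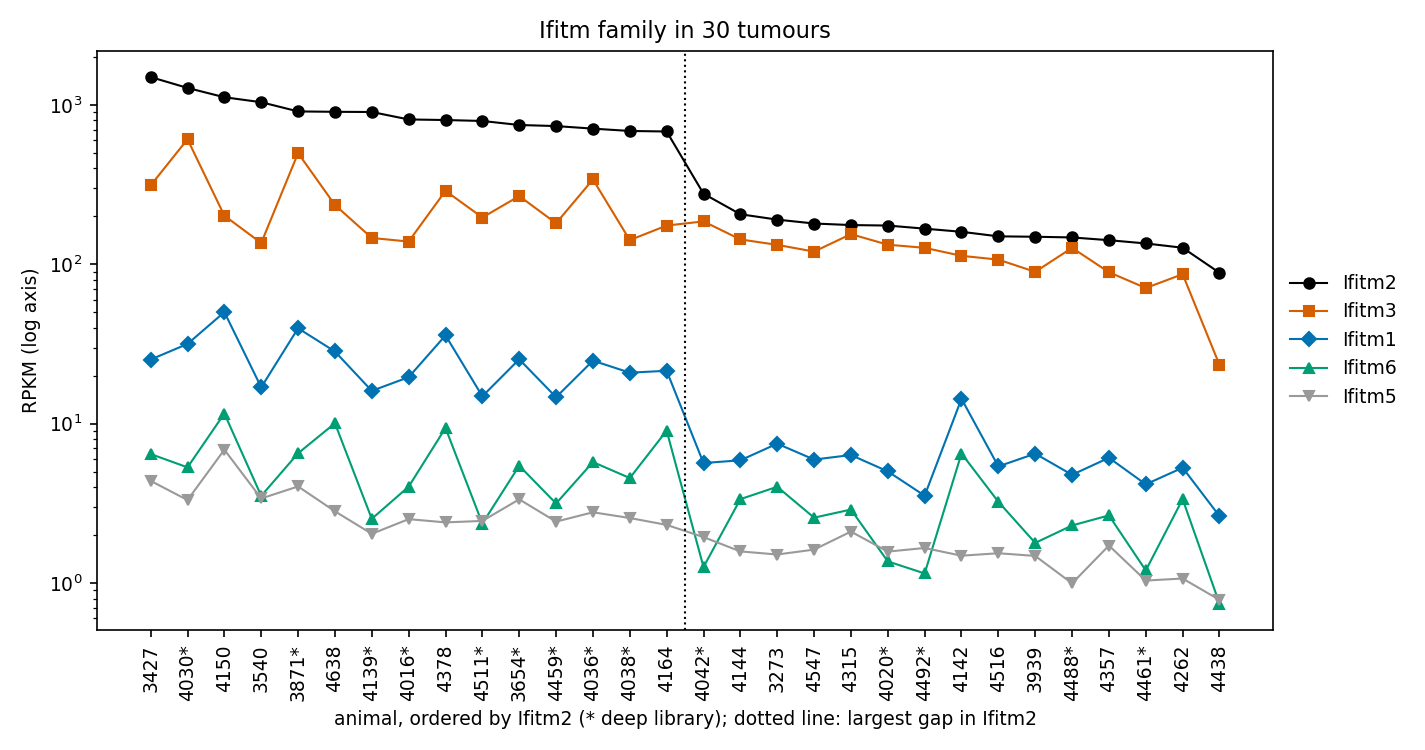
RPKM on a log axis (vertical) of the 5 Ifitm genes in each tumour, with animals along the horizontal axis from the highest to the lowest Ifitm2 and asterisks on deep libraries. The dotted line is the gap between 682 and 278 RPKM of Ifitm2; Ifitm1 drops at the same place except in animal 4142, and all 5 genes end lowest in animal 4438.

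The values of Ifitm1 on the 2 sides of the Ifitm2 gap did not overlap, but nearly touched. Its lowest, median and highest values were 14.7, 24.9 and 50.2 RPKM above the Ifitm2 gap, against 2.63, 5.67 and 14.3 RPKM below it. The sides touched at animal 4459 above the gap (14.7 RPKM) and animal 4142 below it (14.3 RPKM), and the next highest tumour below had 7.50 RPKM. The level of Ifitm1 alone thus placed animal 4142 beside the tumours above the gap. Of 13612 tested genes, 2 did not overlap between the sides (0.0147%), Ifitm1 and Tspan32, a tetraspanin of blood cells. Tspan32 had 7.84, 10.99 and 19.03 RPKM above the gap, against 2.26, 3.97 and 7.19 RPKM below it.

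The other members shifted less and overlapped. Ifitm5 had 2.04, 2.78 and 6.87 RPKM (lowest, median, highest) above the gap, against 0.784, 1.54 and 2.10 RPKM below it, and 14 of 15 tumours above exceeded every tumour below. Ifitm3 had 136, 202 and 610 RPKM above, against 23.4, 120 and 186 RPKM below, and 9 of 15 above exceeded every tumour below. Ifitm6 had 2.36, 5.45 and 11.6 RPKM above, against 0.743, 2.57 and 6.50 RPKM below, and 5 of 15 above exceeded every tumour below. The ratios of the medians were 4.39 for Ifitm1, 2.12 for Ifitm6, 1.81 for Ifitm5 and 1.68 for Ifitm3. Ifitm10, a family member 36 tested genes farther along chromosome 7, had a median of 1.34 RPKM above and 1.51 RPKM below.

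**Figure D2:**
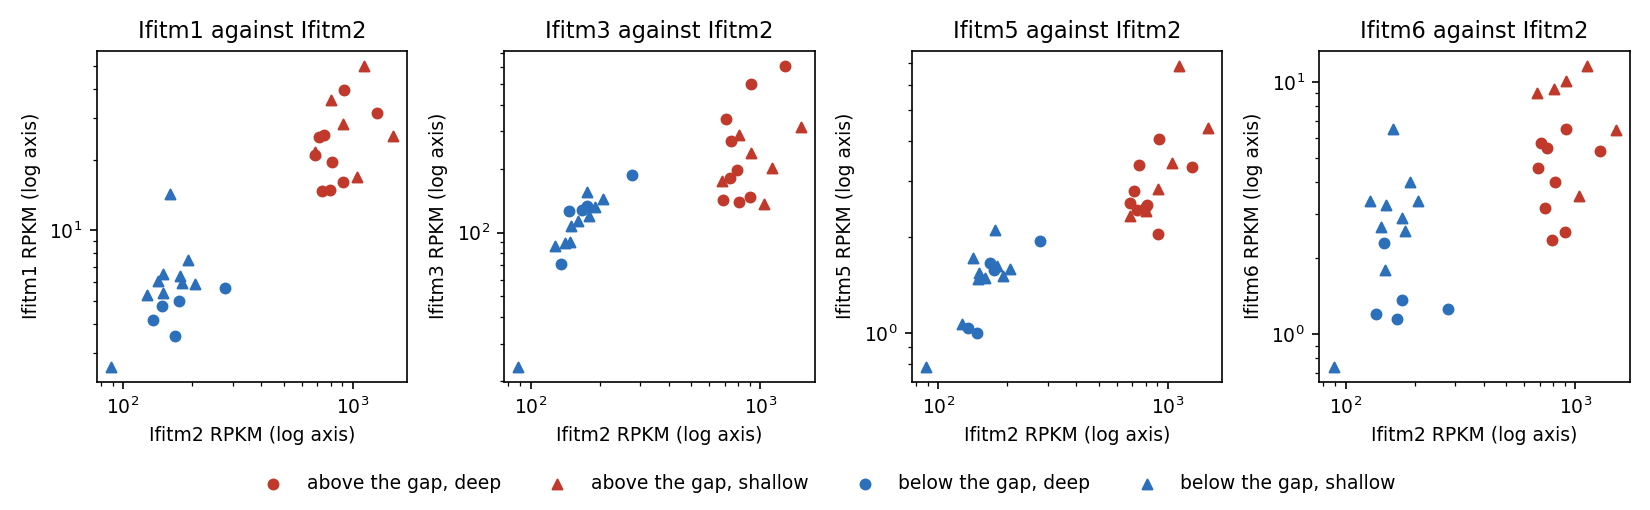
RPKM of Ifitm1, Ifitm3, Ifitm5 and Ifitm6 (vertical, log axes) against Ifitm2 (horizontal, log axis), 1 point per tumour, coloured by the side of the Ifitm2 gap with circles for deep and triangles for shallow libraries. Ifitm1 forms 2 clouds, with 24.9 RPKM at the median above and 5.67 RPKM below, while Ifitm3 overlaps between 136 and 186 RPKM.

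In the reference, transcripts of the family shared few 50-base stretches with each other, but some shared more with other annotated transcripts. Whether the reads of these libraries could be told apart was not tested. Of the 50-base stretches of Ifitm2 transcripts in GENCODE, 3.30% also occurred in another member, and 48.5% occurred in transcripts of 6 predicted genes (Gm11951, Gm2840, Gm45308, Gm45432, Gm45717 and Gm8865). For Ifitm5 no stretch occurred in another member and 25.3% occurred in Gm45717, which also holds stretches of Ifitm2 and Ifitm3. Ifitm3 shared 5.56% with other members and 7.79% with predicted genes, Ifitm1 shared 1.42% and 3.69%, and Ifitm6 shared none. How reads of shared stretches were counted is not given, so the levels of Ifitm2 and Ifitm5 are uncertain to that extent.

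Relations of the whole transcriptome to each member were then tested with limma, where a slope is the change in log2(RPKM + 1) of a gene per SD of the member's level, with its SE, and the adjusted p is over all tested genes. With Ifitm2, 18 of 13612 genes passed (0.132%), of which 17 rose (0.125%) and 1 fell. With depth class or insert size as a covariate 15 genes passed in each case. All 4 other members were among the 18 genes of the fit without a covariate. Ifitm1 rose by 0.99 ± 0.08 (adjusted p = 2.3e-09), Ifitm3 by 0.67 ± 0.10 (adjusted p = 0.00035), Ifitm6 by 0.50 ± 0.10 (adjusted p = 0.025) and Ifitm5 by 0.41 ± 0.05 (adjusted p = 1.3e-06). Since the family was chosen with these data in view, its own slopes describe the choice. Ifitm10 had a slope of 0.03 ± 0.05 and did not pass (adjusted p = 0.90).

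The calls lay almost wholly on chromosome 7, which held 17 of the 18 and 8.13% of tested genes. Apart from the family, 13 genes there were called, and only Fuom, a fucose mutarotase, fell, by 0.20 ± 0.04 (adjusted p = 0.025). The largest slopes were those of Tspan32 (0.68 ± 0.07, adjusted p = 8.6e-08), 44 tested genes after the family, and Trpm5 (0.68 ± 0.08, adjusted p = 3.1e-06), a cation channel of taste cells, 48 genes after it. Uros, an enzyme of haem synthesis 38 genes before the family, had a slope of 0.57 ± 0.07 (adjusted p = 5.4e-06). Within the tumours above the gap 0 genes passed with Ifitm2 in limma (1369 at an unadjusted p under 0.05). Below the gap 387 passed, or 8 without animal 4438, and the slope of Uros was -0.15 with that animal. Uros had 23.9, 33.7 and 62.6 RPKM above the gap and 12.1, 14.2 and 33.4 RPKM below it. Slc22a18, a membrane transporter, rose by 0.43 ± 0.05, and Tnfrsf22, a decoy receptor of the TNF receptor family, rose by 0.38 ± 0.05. The call outside chromosome 7 was Rps15a-ps6, a ribosomal pseudogene on chromosome 11, which shares sequence with its parent gene and is uncertain for that reason.

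Most genes immediately beside the family were not called with Ifitm2. Of the 10 tested genes on either side, 1 of 20 was called, against 0.132% of all tested genes. It was Pgghg, which adjoins Ifitm5 and encodes a glucosidase that trims sugars from collagen. Its slope was 0.37 ± 0.04 (adjusted p = 1.3e-06), with a median of 24.4 RPKM above the gap and 16.4 RPKM below it, and 13 of 15 tumours above exceeded every tumour below. The median slope of the 20 neighbours was 0.017, against -0.018 over all tested genes. B4galnt4, a glycosyltransferase gene that adjoins Ifitm6, had a slope of 0.41 ± 0.09 and missed the threshold (adjusted p = 0.068). Sigirr and Bet1l each had a slope of 0.11 ± 0.04 (limma, unadjusted p = 0.0051 and 0.0067, adjusted p = 0.55 and 0.60). Hras, the small GTPase 7 genes after the family, had a slope of 0.07 ± 0.06 and did not pass, and neither did Irf7, the interferon-induced transcription factor 12 genes after it (0.30 ± 0.15, adjusted p = 0.70). Beyond 10 genes, 2 of 40 tested genes before and 6 of 40 after the family were called up to 50 genes away, then 2 of 985 before and 2 of 17 after up to the ends of the chromosome's tested genes. The 6 were Cdhr5, Sct, Drd4, Chid1, Tspan32 and Trpm5.

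**Figure D3:**
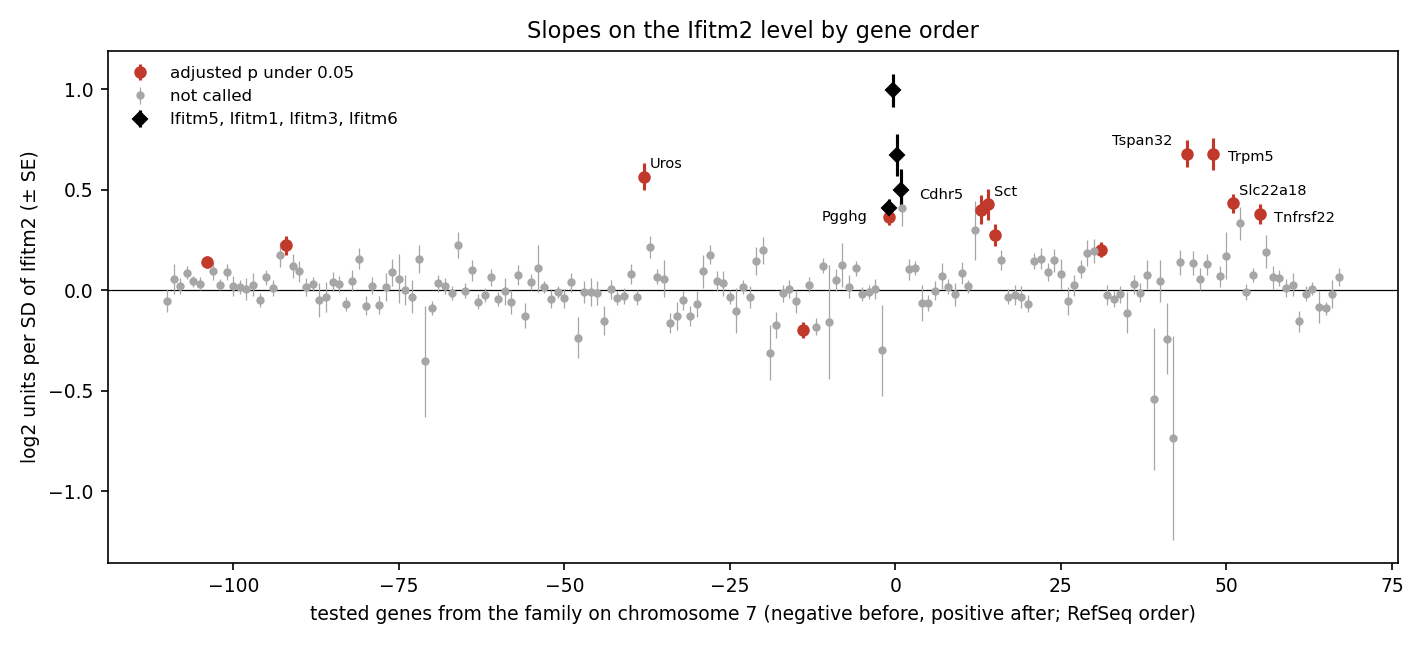
Slopes on the Ifitm2 level (vertical, log2 units per SD, bars are SE) of tested genes on chromosome 7 by their order from the family (horizontal, negative before and positive after), with called genes in red, uncalled ones in grey and the family as black diamonds. Called genes such as Tspan32 (0.68) and Uros (0.57) stand among uncalled ones, and the 20 nearest neighbours centre on 0.017.

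Within the sides of the gap, Ifitm2 was correlated with Ifitm3 below the gap, and with Ifitm5 under some settings only. Ifitm2 was correlated with Ifitm5 above the gap (r = 0.63, rho = 0.65, permutation p = 0.014 and 0.011, adjusted p = 0.021 and 0.017, n = 15) and below it (r = 0.77, rho = 0.68, permutation p = 0.00061 and 0.0070, adjusted p = 0.0011 and 0.012, n = 15). Ifitm2 was correlated with Ifitm3 below the gap (r = 0.90, rho = 0.90, permutation p = 2e-05 for each, adjusted p = 4.7e-05 and 5.6e-05, n = 15), while above it r was 0.38 (permutation p = 0.16, adjusted p = 0.20). Without the 2 tumours farthest from the median, r of Ifitm2 with Ifitm3 below the gap was 0.83. That of Ifitm2 with Ifitm5 was 0.66 above the gap and 0.60 below it, while adjusted p of rho was 0.096 above and 0.11 below. Under quantile normalization r of Ifitm2 with Ifitm5 above the gap was 0.22 (permutation p = 0.41, adjusted p = 0.47). Within the deep libraries above the gap it was 0.34 (permutation p = 0.38, adjusted p = 0.43, n = 9). The difference of the 2 sides was not tested. Ifitm2 showed no relation past the threshold with Ifitm1 (r = 0.35 above and 0.40 below) or Ifitm6 (r = 0.16 above and 0.20 below). These adjusted values are over 14 relations among the members, for r and for rho separately.

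Ifitm1 also fell into 2 clusters, with animal 4142 in the upper one although it lay below the Ifitm2 gap. Its relations are given within the sides of the Ifitm2 gap, as a description. Those below the gap still span both clusters of Ifitm1 through animal 4142. Ifitm1 and Ifitm6 had r = 0.83 above the gap and 0.85 below it (rho = 0.86 and 0.72, n = 15 each). In animal 4142, which had the highest Ifitm1 below the gap, Ifitm6 was also highest below the gap, at 6.50 RPKM. Animal 4150 had the highest Ifitm1, Ifitm5 and Ifitm6 of all tumours, at 50.2, 6.87 and 11.6 RPKM. With the 2 most extreme Ifitm1 values of each side left out, r of Ifitm1 with Ifitm6 was 0.76 above the gap and 0.66 below it.

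Over all 30 tumours, Ifitm3 was correlated with Ifitm5 (r = 0.74, rho = 0.84, permutation p = 2e-05 and 1e-05, adjusted p = 4.7e-05 and 3.5e-05), where 1e-05 is the smallest p that the permutations can give. Ifitm3 and Ifitm6 had r = 0.64 and rho = 0.61 (permutation p = 0.00017 and 0.00044, adjusted p = 0.00034 and 0.00088), and Ifitm5 and Ifitm6 had r = 0.69 and rho = 0.65 (permutation p = 2e-05 and 0.00014, adjusted p = 4.7e-05 and 0.00033). In the order of these 3 pairs, r was 0.84, 0.75 and 0.84 within deep libraries and 0.72, 0.83 and 0.70 within shallow ones. Without the 2 farthest tumours r was 0.73, 0.59 and 0.62. These 3 genes shifted across the Ifitm2 gap, so the relations over all tumours span the 2 levels for which the family was chosen. Within the sides of the gap r was lower for Ifitm3 with Ifitm6, at 0.35 above and 0.38 below (permutation p = 0.20 and 0.16, unadjusted). For Ifitm5 with Ifitm6 it was 0.48 above and 0.25 below (permutation p = 0.063 and 0.37, unadjusted). That of Ifitm3 with Ifitm5 was 0.32 above and 0.76 below (permutation p = 0.24 and 0.00062, unadjusted).

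The genes most like each member in level, by Pearson's r over the 30 tumours, were largely on chromosome 7. The closest to Ifitm1 was Tspan32 (r = 0.95), the closest to Ifitm2 and to Ifitm6 was Ifitm1 (r = 0.91 and 0.86), the closest to Ifitm5 was Ifitm2 (r = 0.87), and the closest to Ifitm3 was Pgghg (r = 0.82). The other genes among the first 5 of each member were members or Trpm5, Slc22a18, Tnfrsf22, Cdhr5, Cend1, Sct and Drd4, with 1 from elsewhere, Psmb8 on chromosome 17 (r = 0.78 with Ifitm3).

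Of the 5 members, Ifitm3 had interferon-response genes among its calls, and 4 tumours stood apart in the level of these genes. With Ifitm3, 84 genes passed (0.617%), of which 68 rose (0.5%) and 16 fell (0.118%), and 24 lay on chromosome 7. Of 26 interferon-response genes 16 rose and none fell, with a median slope of 0.46 against -0.01 over all genes. They included Isg15, a ubiquitin-like modifier (0.63 ± 0.09, adjusted p = 0.00049), Irf7 (0.65 ± 0.11, adjusted p = 0.0011), the antiviral enzyme gene Oas1a (0.70 ± 0.14, adjusted p = 0.0078) and the tetherin gene Bst2 (0.49 ± 0.09, adjusted p = 0.0052). Of 14 interferon-gamma induced genes 6 rose, among them the immunoproteasome subunit Psmb8 (0.40 ± 0.06, adjusted p = 0.0004), the peptide transporter Tap1 (0.26 ± 0.05, adjusted p = 0.0078) and the GTPase Igtp (0.45 ± 0.09, adjusted p = 0.0042). Isg15 ran from 3.32 to 52.5 RPKM over the tumours, with a median of 7.79 RPKM.

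In the mean standardised level of the 26 genes, 4 tumours (animals 3871, 4030, 4036 and 4378) stood apart at 1.55 to 2.15 SD units, against -1.20 to 0.64 in the other 26. All 4 were above the Ifitm2 gap and had 289 to 610 RPKM of Ifitm3, against 23.4 to 313 RPKM in the other tumours. The 4 were picked by the level of the genes tested, so leaving them out narrows the range of those genes. Without these 4 tumours, 0 of 26 interferon-response and 0 of 14 interferon-gamma induced genes passed with limma, the median slope of the 26 genes was 0.16, and 14 genes passed in all (1693 at an unadjusted p under 0.05). Within the other 26 tumours r of Ifitm3 with the interferon-response score was 0.39 (rho = 0.26, permutation p = 0.048 and 0.19, adjusted p over 2 scores = 0.048 and 0.25), and it was 0.20 without the 2 farthest tumours. On the sides of the Ifitm2 gap it was 0.52 above (permutation p = 0.10, n = 11) and 0.59 below (permutation p = 0.0091, rho = 0.52, permutation p = 0.051, n = 15), unadjusted. With the interferon-gamma score r was 0.38 above and 0.69 below (permutation p = 0.25 and 0.014, unadjusted). In these 26 tumours r of Ifitm3 with the interferon-response score was 0.16 in deep libraries (rho = -0.08, n = 11). In shallow ones it was 0.43 (rho = 0.35, n = 15). Leaving out animal 4030 alone left 10 of 26 genes called.

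**Figure D4:**
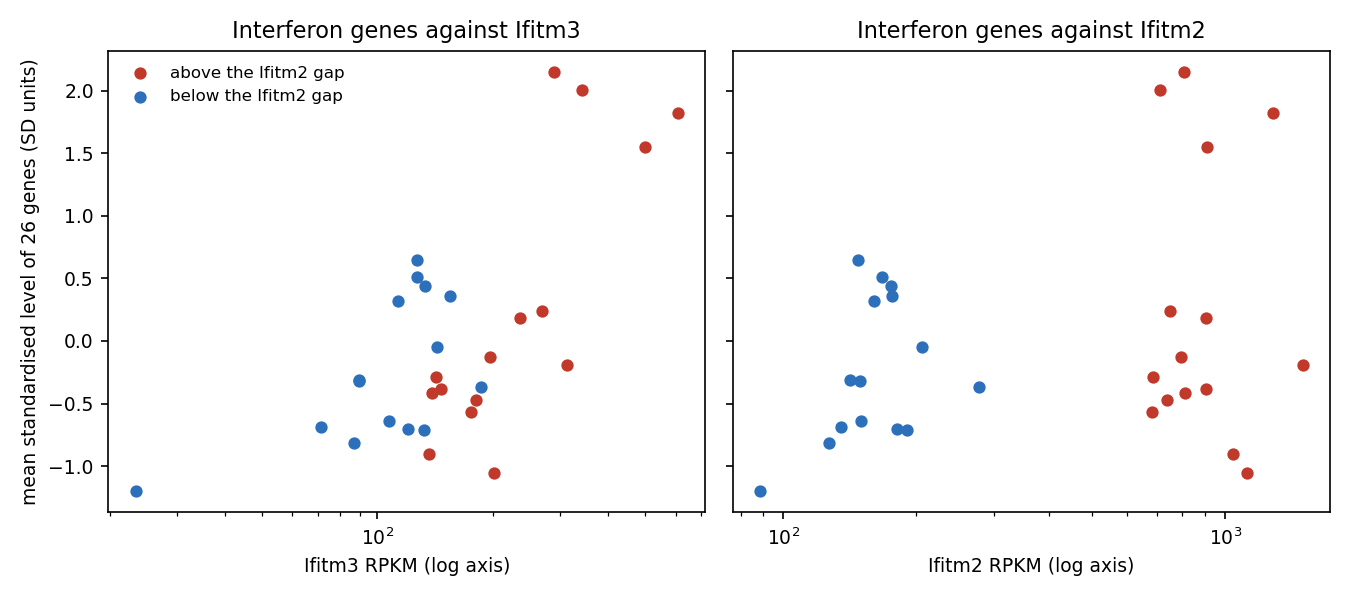
Mean standardised level of 26 interferon-response genes (vertical, SD units) against RPKM of Ifitm3 (left) and Ifitm2 (right) on log axes, 1 point per tumour, coloured by the side of the Ifitm2 gap. The 4 tumours at 1.55 to 2.15 lie apart at high Ifitm3, and tumours of both sides of the Ifitm2 gap lie among the other 26, between -1.20 and 0.64.

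Over all tumours the tested genes upstream in the interferon pathway did not pass with Ifitm3. None of 6 tested interferon receptor genes passed (Ifnar1, Ifnar2, Ifngr1, Ifngr2, Ifnlr1 and Il10rb), nor did any of 10 signal transducers such as the STAT genes, nor any of 9 modifiers and partners of IFITM3. With the level of Ifitm2 as a covariate, 2 of the 10 transducers rose with Ifitm3, Stat2 (0.30 ± 0.08, adjusted p = 0.036) and Irf9 (0.31 ± 0.07, adjusted p = 0.018). The ligand genes Ifnb1 and Ifng did not exceed 0.047 and 0.123 RPKM in any tumour and were not tested. Genes that fell with Ifitm3 included the flagellin receptor Tlr5 (slope -0.26 ± 0.05, adjusted p = 0.0078), the secreted signal Wnt5a (-0.31 ± 0.06, adjusted p = 0.0079) and Mal, a membrane traffic protein (-0.51 ± 0.10, adjusted p = 0.0040). Against 16 falling calls over all tumours, there were 2 without animal 4438, 4 without animal 4030 and 1 without the 2 tumours farthest from the median, and these 3 genes did not pass without animal 4438.

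No interferon-response gene passed with the other members. With Ifitm1, Ifitm2, Ifitm5 and Ifitm6, 0 of 26 passed, although 26, 26, 24 and 25 slopes were positive, with medians of 0.25, 0.18, 0.17 and 0.21, and the difference from Ifitm3 was not tested. The number of genes called was 21 with Ifitm1 (0.154%), 67 with Ifitm5 (0.492%; 0.22% rose and 0.272% fell) and 32 with Ifitm6 (0.235%; 0.22% rose). In the order of these members, 16, 25 and 17 lay on chromosome 7. Amot, an angiomotin of the Hippo pathway, fell with Ifitm1 (-0.23 ± 0.05, adjusted p = 0.031) and with Ifitm5 (-0.25 ± 0.05, adjusted p = 0.0055). Of the 42 genes outside chromosome 7 called with Ifitm5, 36 fell, among them Slc44a1, a choline transporter (-0.44 ± 0.09, adjusted p = 0.028), and leaving out animal 4150 brought all calls with Ifitm5 down to 12. For Ifitm6 the count was 5 without animal 4150 and 6 without animal 4438.

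Markers of the cell types a tumour piece can hold were set against the members, and in bulk tissue fewer cells of a type and less RNA per cell cannot be told apart. In the fits on Ifitm1, Ifitm2, Ifitm3 and Ifitm6 no gene of the marker lists passed, and with Ifitm5 1 of 8 luminal epithelial genes fell, Cdh1. Of 7 osteoblast markers, 4 were tested and none passed with Ifitm5. Ibsp and Phex did not exceed 0.103 and 0.041 RPKM and were not tested, and Bglap, the osteocalcin gene, ran from 2.60 to 11.2 RPKM. The mean standardised level of the 4 tested markers had r = 0.21 with Ifitm5 over all tumours (permutation p = 0.27, adjusted p = 0.52). Within the sides of the Ifitm2 gap, as a description, r was 0.66 above (rho = 0.61) and 0.34 below (rho = 0.25). The 14 neutrophil and monocyte markers summed to 36.7, 86.4 and 235 RPKM (lowest, median, highest) above the Ifitm2 gap and to 36.7, 60.0 and 188 RPKM below it. The 6 skeletal muscle markers summed to 9.47, 53.4 and 2222 RPKM above and to 11.9, 171 and 11785 RPKM below, and their part in the relations above was not tested. As a description, mean standardised levels of lists were set against Ifitm1 and Ifitm6 within the sides (n = 15 each). Macrophage markers had r = 0.83 and 0.75 below the gap, and -0.26 and -0.29 above it. Endothelial markers had 0.73 and 0.71 below, and -0.14 and -0.15 above. Adipocyte markers had 0.69 and 0.80 below, and -0.39 and -0.37 above. Skeletal muscle markers had 0.57 and 0.75 below, and -0.38 and -0.32 above. Neutrophil and monocyte markers had 0.79 and 0.59 below (rho = 0.52 and 0.36), and 0.39 and 0.51 above. T cell markers had 0.62 and 0.52 below, where rho was only 0.27 and 0.26. Above the gap they had 0.52 and 0.53 (rho = 0.54 and 0.54).

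With the level of Ifitm2 as a covariate, an alternative chosen after the data were seen, Ifitm1 and Ifitm6 had T cell and neutrophil genes among their calls. With Ifitm1, 458 genes rose (3.36%), including 5 of 5 tested T cell markers, such as the kinase Lck (0.76 ± 0.14, adjusted p = 0.0021) and the coreceptor Cd4 (0.75 ± 0.16, adjusted p = 0.0047), and 3 of 10 neutrophil and monocyte markers, Ngp, Camp and Csf3r. With Ifitm6, 496 genes rose (3.64%), including only 2 of 5 tested T cell markers, Lck (0.40 ± 0.08, adjusted p = 0.0025) and Cd4 (0.39 ± 0.09, adjusted p = 0.0074). Of 10 neutrophil and monocyte markers 2 rose with Ifitm6, Ngp and Csf3r. Without animals 4378 and 4142, 1 of 5 T cell markers and 0 of 10 neutrophil and monocyte markers passed with Ifitm1 and likewise with Ifitm6. These animals had the highest mean standardised level of the T cell markers, at 2.73 and 2.09 SD units. Animal 4038 was next at 1.15, so leaving out animals 4378 and 4142 narrows the range of the T cell markers. With Ifitm2 as a covariate, 137 genes rose with Ifitm3 (1.01%), including 19 of 26 interferon-response genes and 9 of 14 interferon-gamma induced genes. Over all tumours Ifitm1 and Ifitm2 had r = 0.91, so little of the Ifitm1 level varies apart from Ifitm2. Without the covariate the median slope of the 5 T cell markers on Ifitm1 was 0.19, and 0 passed.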

How the data were processed

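Poly-A RNA of 30 mammary tumours was sequenced. The deposited table holds 27902 transcripts with the authors' RPKM (reads scaled to transcript length and library depth), a unit inferred from the values. CASAVA 1.7.0 is named in the submitters' processing notes. The sources used here do not give the aligner settings, genome build, annotation, read length or treatment of reads that match several genes. Transcripts were matched by identifier to the RefSeq gene table (26490) or GENCODE vM21 (154), 692 small RNAs were left out, and the transcript with the highest mean stood for each of 20849 genes. Depth was recovered from the steps between low values. Since 46.9% to 69.9% of these values in a library came to a whole read count within 0.12, counts could not be rebuilt and no count test was run.

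The 13613 genes averaging 1 RPKM or more entered the tests as log2(RPKM + 1) with limma 3.58.1 (R 4.3.3; empirical Bayes with trend, two-sided), each on the level of 1 family member divided by its SD, with p-values adjusted by Benjamini-Hochberg across the whole table and called under 0.05. The scale understates changes of low genes. Correlations were tested with 100000 permutations, two-sided. The genes named are the members, the 10 tested genes on either side, for each member the 5 genes with the smallest p in each direction and the 5 with the highest Pearson r, and genes of the lists. Other called genes on chromosome 7 were named after their values were seen. Members and lists were chosen with earlier results of these data known. The scripts were tested on simulated data. Alternatives changed the pseudocount, the filter, the scaling, the tumours and the covariates.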

Additional observations from a re-analysis of the deposited data

How the results depend on the processing

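The split of Ifitm2 into 15 tumours above and 15 below was the same under quantile normalization and in a mixture of 2 normal distributions. The mixture was set to 2 groups, so it could move the line between them but could not test their number. A pseudocount of 0.1 and summed transcripts also left the split the same, but neither could reorder the tumours. The count of member relations past the threshold stayed within 1.5 times under 6 alternatives, but the relations were not all the same. Within the deep libraries the side below the gap (n = 5) was too small to test, so fewer relations entered. No relation of Ifitm2 passed there. No member passed with a list score without the 2 farthest tumours (0 relations), within the shallow libraries (0) or within the deep libraries (0), against 2 of 90 over all tumours. Those 2 passed by r, and no rho passed (smallest adjusted p = 0.23). Ifitm2 with Ifitm5 above the gap did not pass under quantile normalization (r = 0.22, permutation p = 0.41) or within the deep libraries (r = 0.34, permutation p = 0.38). Leaving out each animal in turn gave 14 to 24 genes with Ifitm1, 15 to 23 with Ifitm2, 41 to 135 with Ifitm3, 12 to 243 with Ifitm5 and 5 to 61 with Ifitm6. The lowest and highest counts came without animals 4438 and 4150 for Ifitm3, 4150 and 3427 for Ifitm5, and 4150 and 4547 for Ifitm6.

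Within the depth classes, where fewer tumours enter, 7 (shallow) and 5 (deep) genes passed with Ifitm1, 8 and 3 with Ifitm2, 2 and 13 with Ifitm3, 6 and 3 with Ifitm5, and 2 and 1 with Ifitm6. With a mean of at least 5 RPKM, which tests fewer genes, 10 passed with Ifitm1, 10 with Ifitm2 and 3 with Ifitm6. Without the 2 farthest tumours 23 passed with Ifitm3, 10 with Ifitm5 and 2 with Ifitm6. A pseudocount of 0.1 gave 22 with Ifitm5, quantile normalization 8 with Ifitm6, and depth class as a covariate 13 with Ifitm6. Insert size as a covariate gave 194 with Ifitm3 and 16 with Ifitm5, and the interferon score as a covariate 221 with Ifitm3, 104 with Ifitm5 and 78 with Ifitm6. With Ifitm2 as a covariate 469 passed with Ifitm1, 156 with Ifitm3, 1111 with Ifitm5 and 500 with Ifitm6, and 511, 157, 1189 and 442 when animals 4378 and 4142 were also left out. Without the 4 tumours of high interferon score 14 passed with Ifitm3. The cause of these changes was not tested.

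Within the 15 tumours above the gap 0 genes passed with Ifitm2 in limma (1369 at an unadjusted p under 0.05), and within the 15 below 387 passed, or 8 without animal 4438. Slopes on Ifitm2 changed sign there for Fuom (0.0612 above, 0.0120 below, 0.0513 below without animal 4438), Uros (-0.15 below, -0.13 without animal 4438) and Chid1 (-0.0042 below). Without animal 4438 they also changed sign for Cdhr5 (-0.0229), Drd4 (-0.0112), Ifitm6 (-0.0719), Rps15a-ps6 (-0.0276), Sct (-0.0252), Tnfrsf22 (-0.0237) and Trpm5 (-0.0205). No paired analysis was possible because the labels give 1 group and no replicate numbers. Depth limits the low members, Ifitm5 and Ifitm6, and no counting interval is given since counts could not be rebuilt.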
